A study of Mus musculus with 6 samples.

Results

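The genes described here are 8 components of the neuromuscular junction, the synapse between motor nerve and muscle fibre. They are the 5 subunit genes of the muscle acetylcholine receptor (Chrna1, Chrnb1, Chrnd, Chrng and Chrne), the kinase gene Musk, the scaffold gene Rapsn and the neuregulin receptor gene Erbb3. They were chosen by name, with earlier results of these data known, so shares over all genes are given as background only. A gene counted where a probe set carried its symbol and no other. All 8 were found, out of 22180 genes measured, and each was read by 1 probe set. The RNA came from C2C12, a mouse myoblast line whose cells divide in serum-rich medium and fuse into multinucleated myotubes when serum is lowered. There were 6 groups of 1 Affymetrix array each. Cultures in growth medium with 10% fetal bovine serum were untreated, treated with TNF-α at 50 ng/ml for 24 h, or treated with BTZ at 10 nM for 24 h. The other cultures were moved to 2% differentiation medium and harvested on day 5. These were untreated or were given TNF-α at 50 ng/ml or BTZ at 10 nM on day 4. BTZ is given in the labels as an abbreviation alone; in cell culture work it commonly means the proteasome inhibitor bortezomib. TNF-α is an inflammatory cytokine. The cultures held a muscle cell line, with no nerve named in the labels, so the genes were read as muscle cells express them on their own.

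The muscle acetylcholine receptor is an ion channel built from α, β and δ subunits plus either γ, the embryonic form, or ε, the adult form. Motor nerves release agrin, which binds the receptor Lrp4 and so activates the kinase MuSK, and the scaffold protein rapsyn then gathers acetylcholine receptors under the nerve ending. Receptor subunit genes are known to switch on as myoblasts fuse, under the myogenic factors MyoD and myogenin, which bind DNA letters called E-boxes. Neuregulins act on muscle through ErbB receptors, and ErbB3 pairs with ErbB2 because its own kinase domain is weak.

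The bases before a gene's start are shown for 3 subunit genes, picked after their values were seen. Chrng and Chrna1 differed with the medium while Chrne did not. Chrnb1 and Musk, which also differed with the medium, are not printed. RefSeq sequence of build GRCm38.p6 was at hand for 5 of the 8 genes (Chrna1, Chrnb1, Chrng, Chrne and Musk). Each run holds the 250 bases before the start, 5′ to 3′ on the gene's own strand. Capitals mark the E-box letters CANNTG, which read the same on both strands, and in Chrne also the N-box letters CCGGAA, searched on both strands. The windows are chr1:87205561-87205810 on the plus strand for Chrng, chr2:73580339-73580588 on the minus strand for Chrna1, and chr11:70619195-70619444 on the minus strand for Chrne.
Chrng: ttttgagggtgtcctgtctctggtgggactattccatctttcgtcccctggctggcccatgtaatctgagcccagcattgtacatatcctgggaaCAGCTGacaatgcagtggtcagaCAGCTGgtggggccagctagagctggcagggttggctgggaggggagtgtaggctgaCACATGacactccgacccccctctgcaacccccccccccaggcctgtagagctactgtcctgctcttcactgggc
Chrna1: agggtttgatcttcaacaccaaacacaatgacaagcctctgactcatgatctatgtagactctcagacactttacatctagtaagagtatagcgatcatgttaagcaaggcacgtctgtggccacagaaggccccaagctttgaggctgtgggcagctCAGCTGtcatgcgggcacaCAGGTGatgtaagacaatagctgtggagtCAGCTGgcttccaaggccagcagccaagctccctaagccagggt
Chrne: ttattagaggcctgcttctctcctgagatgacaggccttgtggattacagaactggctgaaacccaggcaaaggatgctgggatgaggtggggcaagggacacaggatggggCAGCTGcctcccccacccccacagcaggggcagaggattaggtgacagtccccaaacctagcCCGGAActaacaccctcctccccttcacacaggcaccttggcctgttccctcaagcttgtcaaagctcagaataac
In Chrng the E-boxes began at -155, -132 and -75 from the start, and in Chrna1 at -92, -73 and -44. The Chrne window held 1 E-box, at -138, and 1 N-box, at -76. Chrnb1 and Musk also held 3 E-boxes each, so 4 of the 5 windows had at least 3. Of 32851 windows of this length in the table, 12.2% had at least 3 E-boxes. The form CAGCTG, which is counted among the CANNTG matches, occurred at least 2 times in 1.26% of windows, and in those of Chrng and Chrna1. Chrnb1, which also differed with the medium, had 0, while Musk and Chrne had 1 each. A link between these letters and the differences was not tested. At least 1 N-box was in 12% of windows. A match describes letters only and shows no binding.

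**Figure D1:**
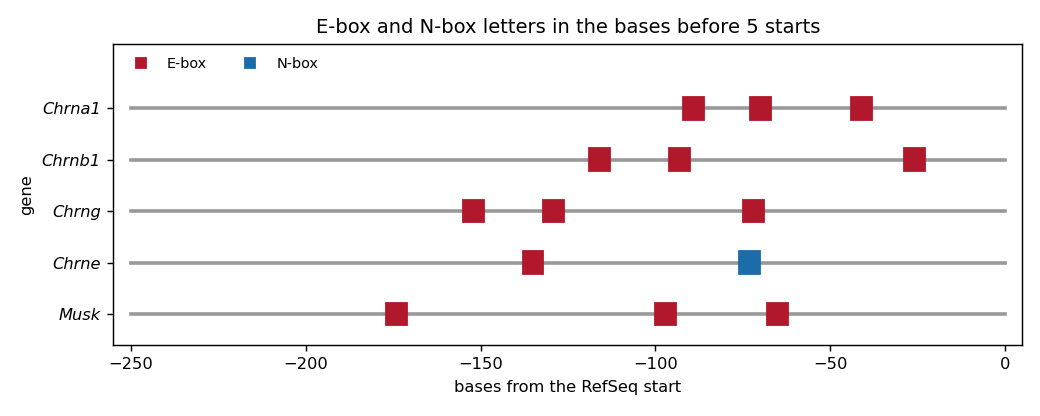
Position of E-box (red) and N-box (blue) letters in the 250 bases before the RefSeq start of 5 genes; the horizontal axis gives bases from the start and each row is a gene. Chrna1, Chrnb1, Chrng and Musk have 3 E-boxes each, and Chrne has 1 E-box and 1 N-box.

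The deposited values were read as log2 signals, and each array's median over 41345 probe sets lay between 5.01 and 5.11. The median of all values, 5.06, was used as a floor. A gene was tested where its highest array reached it, which held for 13652 genes and for all 8 described here. No group had a second array. The precision of a difference between 2 arrays is therefore limited by their number, and it carries no error and no p-value. Of 7 muscle markers, 2 were under the floor in untreated growth medium and 0 in untreated differentiation medium, where their median was 10.90 against 6.47. Among 6 measured Schwann cell markers, a cell type known for Erbb3, group medians ran from 4.52 to 5.11. Of these, Foxd3 was above the floor on all arrays (6.04 to 6.43), and Sox10 was highest in untreated growth medium, at 5.44. Ngfr was above the floor in growth medium untreated (5.22) and with TNF-α (5.16), and in differentiation medium with BTZ (5.29). The 7 motor neuron markers had group medians of 4.02 to 4.50, with Tubb3, which dividing cells also express, at 5.88 to 8.68. Chat was slightly above the floor on every array of differentiation medium (5.15 to 5.31) and under it on every array of growth medium (4.74 to 4.96). The part of such cells in the results was not tested.

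The first comparison asked how untreated cells in differentiation medium differed from those in growth medium. Of the 8 genes, 7 read at least 2-fold higher after differentiation and 0 lower, where 4.83% of all tested genes were higher and 3.92% lower. Their median log2 difference was 2.09, against 0.014 over all tested genes. The embryonic receptor subunit gene Chrng was 53.1-fold higher, Chrnd 19.1-fold and Erbb3, from an array under the floor, 18.7-fold. Fewer muscle cells and less RNA per cell cannot be told apart in bulk RNA, here or in the comparisons that follow.

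Chrng, the γ subunit of embryonic receptors, read 5.25 in untreated growth medium, 4.45 with TNF-α and 5.58 with BTZ. In differentiation medium it read 10.99 untreated, 10.65 with TNF-α and 5.71 with BTZ. The untreated and TNF-α arrays of differentiation medium were thus far above the other 4, which lay at or near the floor. Its log2 difference between media was 5.73, which ranked 7 from the highest among 13652 genes. A signal close to the floor holds much background, so this fold may understate the real ratio.

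Chrne, the ε subunit of adult receptors, read 5.15, 4.92 and 4.79 in growth medium (untreated, TNF-α, BTZ) and 5.06, 4.80 and 5.07 in differentiation medium. Its range over the 6 arrays was 0.36, with 3 arrays under the floor, so no group gave it a level clearly above the floor. Chrnd, the δ subunit, read 6.17, 6.88 and 6.18 in growth medium, in the same order, and 10.42, 10.32 and 6.99 in differentiation medium. As with Chrng, the 2 high arrays of Chrnd were the untreated and TNF-α cultures of differentiation medium. Chrnd and Chrng are neighbours on chromosome 1, with 0 genes between them in the RefSeq table.

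Chrna1, the α subunit that carries most of the acetylcholine binding site, was already well above the floor in growth medium. It read 10.17 untreated, 9.44 with TNF-α and 9.75 with BTZ there, and 11.92, 11.45 and 10.25 in differentiation medium. Chrnb1, the β subunit, read 7.59, 8.14 and 8.14 in growth medium and 10.01, 9.37 and 8.89 in differentiation medium. For both genes every array of differentiation medium was higher than every array of growth medium, by 0.080 at the closest for Chrna1, a gap whose error is unknown. Their untreated differences between media were 1.75 for Chrna1 and 2.42 for Chrnb1, smaller than those of Chrnd (4.25) and Chrng.

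Musk, the kinase that starts receptor clustering, read 7.82, 6.54 and 6.65 in growth medium (untreated, TNF-α, BTZ) and 9.46, 8.77 and 8.32 in differentiation medium. Every array of differentiation medium was above every array of growth medium, and within each medium the untreated array was the highest. Rapsn, the scaffold that holds receptors together, read 7.75, 8.44 and 6.58 in growth medium and 9.03, 8.50 and 6.42 in differentiation medium. The 2 BTZ arrays of Rapsn were both below the other 4. Erbb3 read 4.58, 5.04 and 5.23 in growth medium and 8.80, 8.50 and 4.86 in differentiation medium. Only the untreated and TNF-α cultures of differentiation medium gave Erbb3 a signal clearly above the floor, and 3 of its 6 values were under it. The untreated differences between media were 1.64 for Musk, 1.28 for Rapsn and 4.23 for Erbb3, whose lower array was under the floor, so that its fold may be understated.

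**Figure D2:**
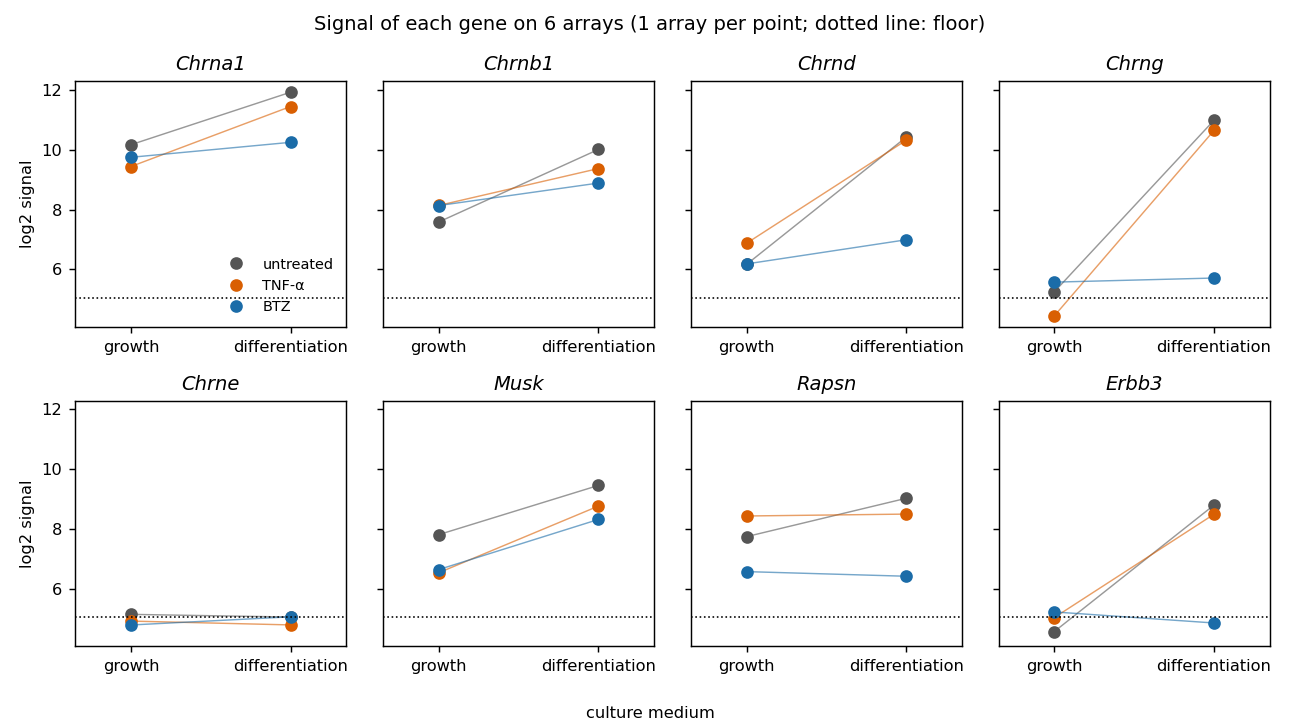
Log2 signal (vertical axis) of each of the 8 genes in growth and differentiation medium (horizontal axis); grey points are untreated, orange TNF-α and blue BTZ, 1 array per point, and the dotted line is the floor of 5.06. Lines join arrays of the same treatment. Chrng, Chrnd and Erbb3 are high only on the untreated and TNF-α arrays of differentiation medium, and Chrne stays near the floor on all 6.

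The same difference between media was read among treated cultures. With TNF-α in both media, 6 of the 8 genes passed 2-fold towards differentiation medium and 0 towards growth medium, where 5.85% and 4.85% of all genes did. Chrng differed by 6.20 in that pair, with its lower array under the floor, Chrnd by 3.44 and Musk by 2.23. Rapsn differed by 0.063, since its TNF-α arrays in the 2 media read nearly the same. With BTZ in both media only 1 of the 8 was at least 2-fold higher, against 1.54% of all genes, and 0 lower, against 2.13%. That gene was Musk, at 1.67, close to its untreated difference of 1.64. Chrng differed by 0.14 between the BTZ arrays and Erbb3 by -0.37. Chrnd differed by 0.81, Chrnb1 by 0.75 and Chrna1 by 0.50.

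The next comparison set TNF-α against no treatment among growth medium cultures. Of the 8 genes, 1 was at least 2-fold lower and 0 higher, where 1.02% and 0.982% of all genes were. The 1 gene was Musk, at -1.27 or 2.42-fold lower, which ranked 63 from the lowest of 13652 genes. The other genes went in both directions by less than 2-fold. Chrng differed by -0.80 and Chrna1 by -0.73, while Chrnd differed by 0.71, Rapsn by 0.69, Chrnb1 by 0.55 and Erbb3 by 0.47. The Chrng value rests on an array under the floor, and for Erbb3 both arrays were under it. The median over the 8 was 0.12, against 0.031 over all genes.

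In differentiation medium TNF-α was given for the last day of culture, and its array was set against the untreated one. None of the 8 genes was 2-fold different in this pair of arrays, where 2.01% of all genes were higher and 0.879% lower. All 8 differences lay below 0, with a median of -0.41 against 0.0073 over all genes. The 7 muscle markers were also all below 0 there, with a median of -0.31, and 0 of the 5 regulators above the floor were above 0; their part in the result was not tested. The largest was that of Musk, at -0.69, followed by Chrnb1 at -0.64, Rapsn at -0.53 and Chrna1 at -0.48. Chrng differed by -0.34, Erbb3 by -0.31, Chrne by -0.26 and Chrnd by -0.10. Musk was thus lower with TNF-α in both media, by less in differentiation medium.

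The TNF-α differences in the 2 media share no array, and they were subtracted from each other without a test. Rapsn had a difference of -1.22, with the TNF-α array higher in growth medium and lower in differentiation medium. Chrnb1, at -1.19, did the same, and so did Chrnd at -0.81 and Erbb3 at -0.77. In each of these 4 genes the differences within a medium were under 2-fold, and both growth medium arrays of Erbb3 were under the floor. Musk gave 0.58, Chrng 0.46 and Chrna1 0.25, each being lower with TNF-α in both media.

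BTZ was first set against no treatment among growth medium cultures. Musk and Rapsn were both at least 2-fold lower, at -1.17 each, which makes 2 of the 8 genes against 6.16% of all genes; 0 of the 8 were higher, against 4.99%. The receptor subunits differed by less. Chrna1 differed by -0.42, Chrne by -0.36, Chrnd by 0.016, Chrng by 0.32 and Chrnb1 by 0.55. Erbb3 differed by 0.65, from an untreated array under the floor.

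The array of BTZ in differentiation medium, given to cells harvested 1 day later, was set against the untreated array of that medium. Of the 8 genes, 7 read below it by 2-fold or more and 0 above it, where 8.91% of all genes were lower and 6.05% higher. Chrng was 38.7-fold lower (log2 difference -5.27), which ranked 2 from the lowest of 13652 genes. Chrnd was 10.8-fold lower (-3.43) and Rapsn 6.09-fold (-2.61). Erbb3 differed by -3.94, but its BTZ array was under the floor, so this difference and its rank rest on background and may be understated. Chrna1 was lower by 3.19-fold, Musk by 2.20-fold and Chrnb1 by 2.18-fold. Chrne, at the floor on both arrays, differed by 0.0077. The median of the 8 was -2.14, against 0.0030 over all genes. This comparison and the untreated comparison of media share the untreated array of differentiation medium, so a high value on that array would enlarge both.

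The BTZ culture in differentiation medium was then set beside the untreated culture in growth medium, a pair that differs in medium and treatment at once. Chrnd differed by 0.82 between them, Musk by 0.51, Chrng by 0.46, Erbb3 by 0.28 and Chrna1 by 0.080. These genes were higher in the BTZ culture by less than 2-fold, and both arrays of Erbb3 were under the floor. Chrnb1, at 1.30, was more than 2-fold higher in the BTZ culture, while Rapsn, at -1.32, was more than 2-fold lower. No error is known for any of these differences. Muscle markers outside these genes moved with them. All 7 were at least 2-fold lower with BTZ in differentiation medium, against 8.91% of all genes. Their median was -3.60, with Myh3 at -3.77 and Actc1 at -4.48. Their part in the differences of the 8 genes was not tested.

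**Figure D3:**
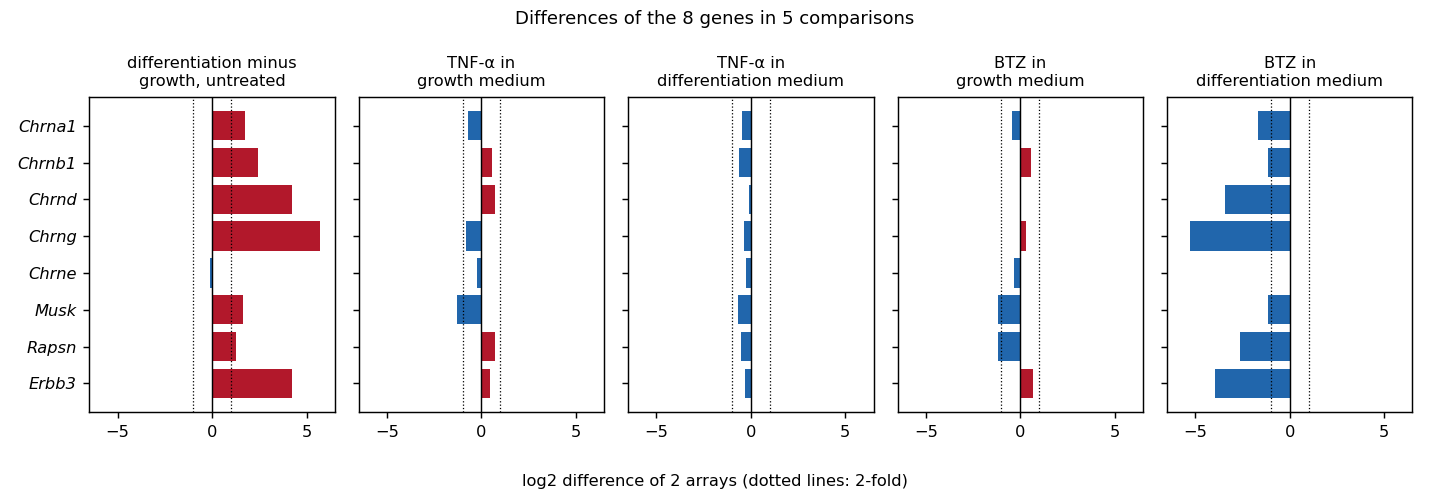
Log2 difference of 2 arrays (horizontal axis) for the 8 genes (rows) in 5 comparisons; red bars are above 0, blue bars below, and dotted lines mark 2-fold. In untreated differentiation medium 7 of the 8 are past 2-fold higher, and with BTZ in that medium 7 are past 2-fold lower.

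The BTZ differences in the 2 media share no array either. Chrng had the lowest difference of differences of all 13652 genes, at -5.60, ranking 1. Erbb3, at -4.60, ranked 4 and Chrnd, at -3.45, ranked 22. Chrnb1, at -1.67, ranked 173, Rapsn, at -1.44, ranked 273 and Chrna1, at -1.25, ranked 399. Musk differed by 0.030 between media, its BTZ differences being -1.17 in growth and -1.14 in differentiation medium. Chrng and Erbb3 read at or near the floor in growth medium, so a lower signal with BTZ could hardly have been seen there. Rapsn, Musk, Chrna1, Chrnb1 and Chrnd were above the floor on all 6 arrays. Chrnd read only 6.17 in untreated growth medium, against a floor of 5.06. A fall like its -3.43 in differentiation medium could therefore not have been seen there.

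**Figure D4:**
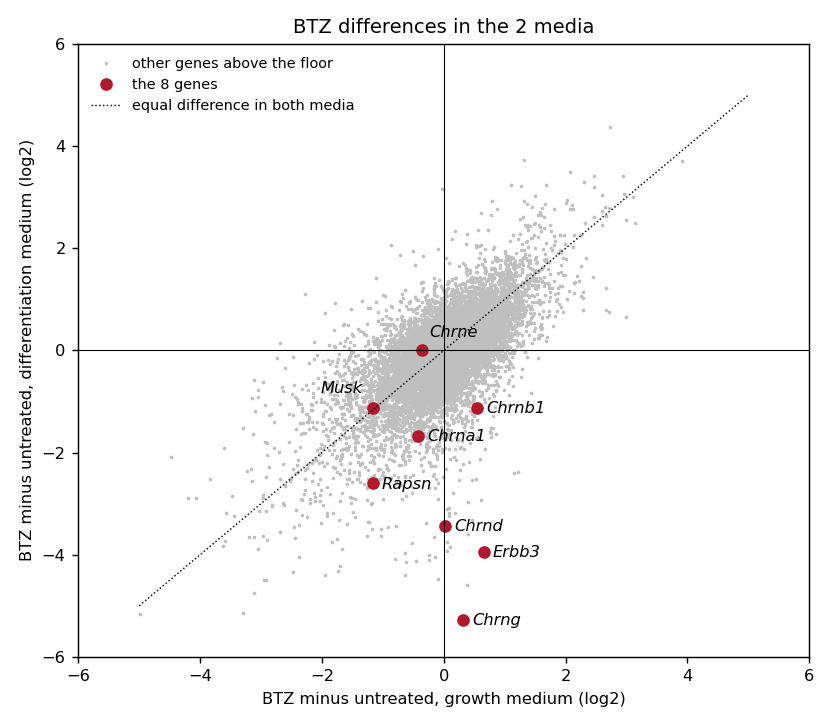
Log2 difference of BTZ and untreated arrays in growth medium (horizontal axis) against differentiation medium (vertical axis); grey points are other genes above the floor, red points the 8 genes, and the dotted line marks equal differences. Musk lies on the line, and Chrng, Erbb3 and Chrnd lie far below it with growth medium differences of 0.32, 0.65 and 0.016.

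An additive model of medium and treatment, fitted to all 6 arrays and 13652 genes with limma, gave the only test the design allows. It leaves 2 residual degrees of freedom and takes a treatment to act alike in both media, so a gene with unequal treatment differences has a large residual. Musk had a medium effect of 1.85 ± 0.17 (SE), with an adjusted p of 0.0073 by limma, and was the 1 gene of the 8 past 0.05, where 1.56% of all genes were higher and 2.47% lower. It was higher in differentiation medium in 3 of 3 pairs of arrays, as were Chrna1, Chrnb1, Chrnd and Chrng, which did not pass. For BTZ, Musk fell by 1.15 (SE 0.21; limma adjusted p = 0.026). Rapsn fell by 1.89 (SE 0.36; limma adjusted p = 0.028). Each was lower in 2 of 2 media, as was Chrna1, which did not pass. For BTZ, 6.85% of all genes were lower and 7.31% higher. For TNF-α, 0 of the 8 passed with limma, where 0.0806% of all genes were higher and 0.0146% lower, and 1, Musk, had an unadjusted p under 0.05 (effect -0.98 ± 0.21 SE; adjusted p = 0.43).

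Chrng had the largest medium effect in the additive fit, at 4.02, but also the largest SE, 1.15, and its limma adjusted p was 0.12. Chrnd (2.83 ± 0.63 SE) had an adjusted p of 0.071 by limma, Chrnb1 (1.47 ± 0.32 SE) of 0.068 and Chrna1 (1.42 ± 0.30 SE) of 0.062. Without the BTZ arrays 6 of the 8 passed for the medium, all higher in differentiation medium, where calls over all genes also rose, to 12.1% higher and 11.4% lower. Among the 6 was Chrng at 5.96 with a limma adjusted p of 2.4e-06; over its 8 alternatives that p ran from 2.4e-06 to 0.44. That fit rests on 4 arrays, with fewer than 2 residual degrees of freedom, and Rapsn and Chrne did not pass in it. It leaves out the treatment whose differences were most unequal between media for Chrng. The residual SD of Chrng was 2.38 with all 6 arrays and 0.23 in this fit, so its small p depends on leaving those arrays out. In the same fit Musk passed for TNF-α, at -0.98 with a limma adjusted p of 0.048, where 7 alternatives ranged from 0.048 to 0.50; 0.938% of all genes were higher and 0.571% lower for TNF-α in that fit.

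Other genes of the junction were read from 5 lists. Of 18 genes of agrin and MuSK signalling 17 were measured, and all 17 reached the floor. In untreated differentiation medium 2 passed 2-fold upward and 0 downward, against 4.83% and 3.92% of all genes, and the list's median was 0.17. These were Lrp4, the agrin receptor, at 2.13 and Dok7, the adaptor that activates MuSK, at 1.61. With BTZ in differentiation medium 3 of the 17 were lower and 1 higher, against 8.91% and 6.05% of all genes: Lrp4 at -3.38, Dok7 at -1.37, agrin (Agrn) at -1.15 and the kinase Abl2 at 1.52. Lrp4 was the 1 list member past 2-fold in each of the other treatment comparisons. It differed by -1.20 and -1.05 with TNF-α in growth and differentiation medium and by -2.01 with BTZ in growth medium. Of all genes 1.02%, 0.879% and 6.16% were lower in these comparisons, in that order, and 1 of 17 is near the last share. Musk, the partner of Lrp4, differed by -1.27, -0.69 and -1.17 in the same order. Within growth medium, both treatments share the untreated array.

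In the list of synaptic matrix and scaffold genes, 17 of 20 were measured and 16 reached the floor. In untreated differentiation medium 7 of the 16 passed 2-fold upward and 0 downward, against 4.83% and 3.92% of all genes, and the median was 0.97. The syntrophin Sntb1 differed by 3.11, the dystrobrevin Dtna by 1.65, the basement membrane protein Nid2 by 1.61 and dystroglycan (Dag1) by 1.55. With BTZ in that medium 6 of the 16 were lower and 0 higher (median -0.77), against 8.91% and 6.05% of all genes, led by Nid2 at -4.04, Dag1 at -2.47, Sntb1 at -2.18 and nestin (Nes) at -1.37. With BTZ in growth medium 4 were lower and 1 higher, against 6.16% and 4.99% of all genes, including Nid2 at -2.38 and Dtna at 1.68. With TNF-α in growth medium, Nid2 at -1.50 was the 1 member past 2-fold, where 1.02% of all genes were lower and 0.982% higher. With TNF-α in differentiation medium 0 were, against 0.879% of all genes lower and 2.01% higher. Ache, the enzyme that breaks down acetylcholine, read between 4.88 and 5.26 on all arrays, at or near the floor, so a change could hardly have been seen.

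Among 11 neuregulin and ETS genes 9 reached the floor, and Nrg1 was the 1 gene past 2-fold in any of the 7 comparisons. Erbb2, the usual partner of Erbb3, ran from 7.50 to 8.17 over the 6 arrays, and Erbb4 was under the floor on all of them. Nrg1, a ligand of these receptors, was lower in untreated differentiation medium by -1.14, where 3.92% of all genes were lower. With BTZ in growth medium it was lower by -1.03, where 6.16% of all genes were lower. It was higher with TNF-α in differentiation medium by 1.63, where 2.01% of all genes were higher. Gabpa, an ETS factor known to act through N-boxes, ran from 8.45 to 8.92.

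The regulators list held myogenic factors and genes tied to muscle activity; 8 of 10 were measured and 5 reached the floor. In untreated differentiation medium 3 of the 5 were at least 2-fold higher and 0 lower, against 4.83% and 3.92% of all genes. With BTZ there 1 was higher and 2 lower, against 6.05% and 8.91% of all genes. Myog, which encodes myogenin, was higher by 4.19 in untreated differentiation medium and lower by -3.97 with BTZ there. Myod1 differed by 1.61 and -2.90 in the same pairs, and Runx1, a transcription factor, by 1.10 and -0.58. Myog and Myod1 are also among the muscle markers above. Hdac4, a deacetylase linked to the response of muscle to denervation, was higher with BTZ in differentiation medium by 1.03. Myf5 was lower with BTZ in growth medium, by -1.84, where 6.16% of all genes were lower. Of the 11 neuronal nicotinic receptor subunits 3 reached the floor, and 0 were past 2-fold in any of the 7 comparisons. The shares of all genes past 2-fold in a given direction ran from 0.879% to 8.91%.

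**Figure D5:**
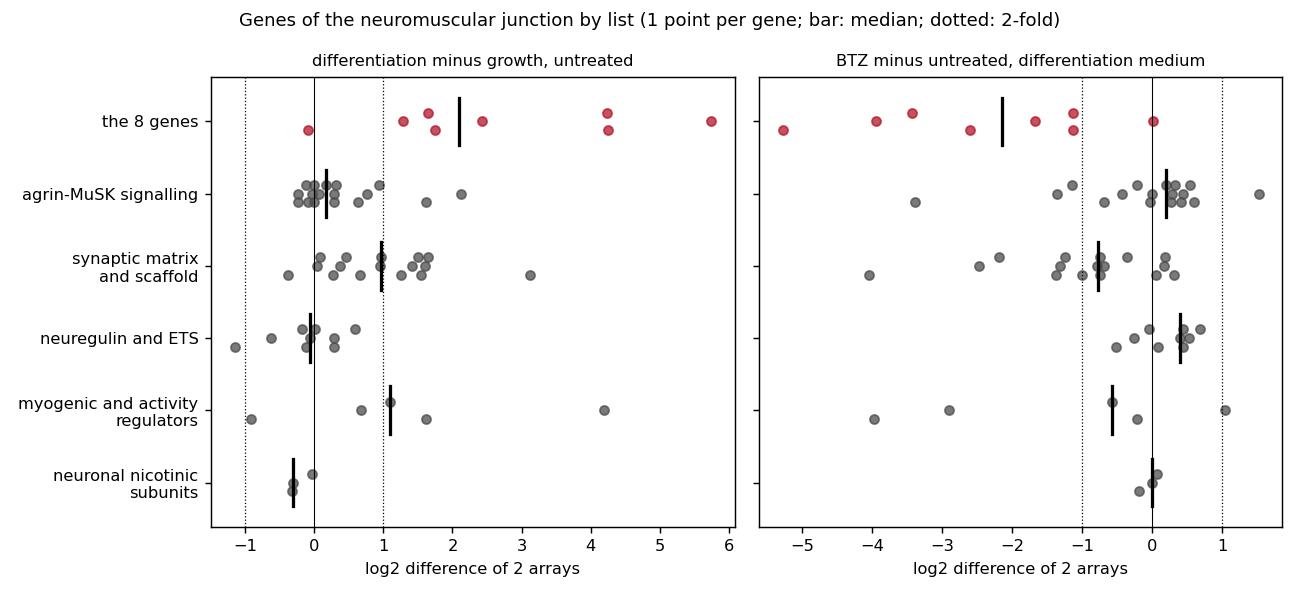
Log2 difference of 2 arrays (horizontal axis) for genes above the floor in 6 lists (rows), in untreated differentiation against growth medium (left) and with BTZ in differentiation medium (right); each point is a gene and the black bar is the list's median. The 8 genes have medians of 2.09 and -2.14, and agrin-MuSK signalling genes of 0.17 and 0.19.

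Genes of most similar pattern were sought over the 6 arrays, as the smallest Euclidean distance between log2 profiles after each gene's mean was subtracted, among 12501 named genes. Musk lay closest to the syndecan Sdc2, at 0.31, and next to Slc9a9 at 0.60. Sdc2 differed by 1.43 between untreated media and by -1.19 with BTZ in differentiation medium. Chrna1 lay closest to Jph2, a junctophilin of the muscle calcium release unit, at 0.31. Pgm5 was closest both to Chrnd, at 0.75, and to Erbb3, at 0.72, followed for Erbb3 by the fast troponin Tnni2 at 0.75 and the calcium pump Atp2a1 at 0.79. Chrng had no gene nearer than Tmem182 at 1.23, then the fast troponin Tnnt3 at 1.42. Chrnb1 was nearest to Nuak1 at 0.54 and Rapsn to Slc12a2 at 0.63. Among the 8 genes themselves the closest pairs were Chrnd with Erbb3, at 0.88, and Chrna1 with Musk, at 0.93, and the farthest was Chrng with Chrne, at 6.57.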

How the data were processed

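Total RNA of 6 C2C12 cultures was amplified by a whole-transcript kit and labelled with biotin, per the labels' protocols. The deposited table holds 1 value per probe set and array, taken here as log2 signals from their range of 1.66 to 14.06. How the authors corrected, normalized and summarized the signals is not given in the sources used. Of 41345 probe sets 23521 named 1 gene in the platform annotation (1814 named several, 16010 none), and these were averaged per gene; 23328 matched RefSeq by Entrez number, with 0 symbols differing. Genes were used where the highest array reached the median of all values. Differences of 2 arrays were called at 2-fold, with no test. The additive fit was run with limma (version 3.58.1, R 4.3.3), using lmFit and a trended eBayes. Its p-values were adjusted by Benjamini-Hochberg over all genes used. The code was tried on simulated data with the same spread for every gene, a medium difference alone and no treatment effects. That trial therefore says nothing on genes with unequal treatment differences between media. The p-values rest on how far the 6 arrays depart from the additive model, which includes any unequal treatment difference between media. They measure no spread between replicate cultures, since no group had a second array. The 8 genes and all lists were chosen with earlier results of these data known. From each list up to 4 members past 2-fold were named per comparison, the largest by size. Erbb2, Erbb4, Gabpa, Ache, Foxd3, Sox10, Ngfr, Chat and Tubb3 were named after their values were seen. For pattern, up to 3 nearest genes were taken per gene, leaving out predicted genes and small RNAs. Alternatives were the highest probe set, shifted or quantile-normalized arrays, other floors, a 1.5-fold call, no trend, and leaving out the BTZ or TNF-α arrays. Gene coordinates are not printed, as the files name no build; promoter windows carry RefSeq's own.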

Additional observations from a re-analysis of the deposited data

Results flagged for a closer look

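Erbb3 differed in opposite directions with BTZ in the 2 media, by at least 1.5-fold in each. The BTZ array was higher by 0.65 in growth medium and lower by -3.94 in differentiation medium, a difference of -4.60 that was not tested. Both growth medium arrays lay near the floor, and the untreated array was under it.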

How the results depend on the processing

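All 112 differences of the 8 genes under the 2 other scalings kept their side of the 2-fold limits in the 7 comparisons; each gene has 1 probe set, so the choice of probe set could change none. The largest shift was 0.059 with arrays at the same median and 0.21 after quantile normalization. With a 1.5-fold call the counts of the 8 genes became 3 higher for medium under BTZ, 2 higher and 3 lower for TNF-α in growth medium, 1 higher for BTZ in growth medium, and 2 lower for TNF-α in differentiation medium. Over all genes that call gave 1555 higher and 1350 lower for the untreated media, 2161 and 2404 for BTZ and 740 and 563 for TNF-α in differentiation medium, and 2005 and 1871 for BTZ and 717 and 639 for TNF-α in growth medium. It gave 1826 and 1675 between media with TNF-α and 768 and 1012 with BTZ. In the limma fit without the BTZ arrays, 6 genes of the 8 passed for medium (1657 higher and 1552 lower of all genes, against 213 and 337) and 1 lower for TNF-α (128 and 78 of all genes, against 11 and 2). Without the TNF-α arrays 29 and 89 of all genes passed for medium, and 612 were higher for BTZ against 998. After quantile normalization 5 were higher for TNF-α. The additive TNF-α effect of Chrnb1 changed sign to 0.011 with arrays at the same median, and the medium effect of Chrne to -0.11 without the BTZ arrays; neither was past the threshold. The cause was not tested. A floor at the 60th percentile left out Chrne. Each group has 1 array, so no fit with a replicate block could be made, and the additive fit compares the media within each treatment. The number of arrays, and signals near the floor for Chrng, Chrne and Erbb3, limit what can be read.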
